A study of Mus musculus with 6 samples.

Results

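The genes described here are those of the unfolded protein response and of protein entry into the endoplasmic reticulum (ER). They are a named list of 41 genes, taken by gene symbol, of which 40 were measured among 19933 genes tested. Sec61g, the remaining one, shares its probe sets with other genes and is given separately. The list holds 7 stress sensors and transcription factors, 9 chaperones of the Hsp70 and Hsp90 system with their cofactors, 6 disulfide isomerases and lectin chaperones, 9 components of ER-associated degradation, 7 subunits of the translocon and its associated complex, and 3 subunits of the signal peptidase. All values are log2 expression values, so a difference of 1 is a doubling, and all differences are arrays labelled transgenic minus arrays labelled control.

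RNA of epithelial cells freshly isolated from the jejunum was hybridised to Affymetrix Gene 1.0 ST arrays, which read a transcript with probes along its length. The 3 control mice had the genotype R26-M2rtTA, a doxycycline-dependent transactivator expressed from the broadly active Rosa26 locus. The 3 other mice had the genotype TRE-MSI2::R26-M2rtTA, which adds a tetracycline-responsive MSI2 transgene to the same transactivator. Mice of both groups, controls included, drank doxycycline for 24 hours, and each gave 1 array, called a biological replicate by its label. The labels state no age or strain, and transgene expression under this transactivator is not restricted to epithelial cells by the alleles named.

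The transcript of the gene named by the transgene's label did not separate the labelled groups. Msi2, an RNA-binding protein of the Musashi family, was at 11.30, 9.53 and 9.32 in the control arrays and at 11.23, 10.58 and 11.44 in the arrays labelled transgenic, so control replicate 1 lay within the range of the other group. The difference was 1.03 (SE 0.55) and did not pass in limma (adjusted p = 0.257). Without control replicate 1 it was 1.66 with an adjusted p of 0.00958. Its paralog Msi1 was at 7.20, 7.97 and 7.62 in the controls and at 13.44, 12.82 and 13.53 in the arrays labelled transgenic, a 50.7-fold difference (adjusted p = 0.000818). The identity of the transgene is therefore in doubt. Groups are named by their labels throughout, and counts are given with and without control replicate 1. The epithelial marker Epcam was between 12.6 and 12.9 on all 6 arrays, and array medians ranged from 6.42 to 6.46. Of the 8 epithelial markers listed, Krt18 (1.47) and Cdh1 (0.32) were called higher and Cdx2 (-0.82) and Vil1 (-0.80) lower. The rest, Epcam among them, did not pass. Probe sets of sex-linked genes in animals that lack the transcript read between 4.07 and 5.06, which serves as the background level here, and none of the 40 measured genes lay in that range on all arrays.

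Secreted and membrane proteins enter the ER through the Sec61 translocon, where the signal peptide is cut off and the chain is folded by chaperones and oxidoreductases. Unfolded chains draw the Hsp70 chaperone BiP (Hspa5) from the sensors IRE1, PERK and ATF6. IRE1 then splices Xbp1 mRNA, ATF6 moves to the Golgi and is cleaved to a transcription factor, and PERK phosphorylates eIF2alpha, which lowers general translation and raises translation of ATF4. The ATF6 and XBP1 factors induce ER chaperones and degradation components. In the intestine the response is best known in the secretory goblet and Paneth cells, and Ern2, encoding IRE1beta, is largely an epithelial and goblet cell gene. Splicing, cleavage and phosphorylation are not read by these probe sets, which measure total transcript.

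Of the 40 measured genes, 6 were higher and 1 was lower in the arrays labelled transgenic (limma, Benjamini-Hochberg adjusted p under 0.05 over all 19933 genes). The 6 that rose were the co-chaperone Dnajb9, the sensor Atf6, the chaperones and folding factors Hspa5 and Creld2, the translocon-associated subunit Ssr3 and the degradation channel component Derl2. The 1 that fell was Edem2, a factor in mannose trimming of misfolded glycoproteins. The 7 called genes were 17.5% of those measured, against 18.6% of all genes tested, so the share of called genes was near that of the array as a whole. By direction, 15.0% were higher against 8.97% of all genes, and 2.5% were lower against 9.65%. Those shares over all genes include dim genes. In a fit of the 12041 genes with a mean above 6, all 40 among them, 15.0% were higher and 16.4% lower. Of the 40, 7 were then higher, a share near that of the genes kept. The same shares over all genes, 8.97% higher and 9.65% lower, stand beside the counts by role and neighbouring group given below. Sizes were moderate, with 2 of the 40 differing at least 2-fold.

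The median difference was 0.20 over the 40 genes and 0.02 over all genes tested, and group means were higher in the arrays labelled transgenic for 29 of 40 genes (72.5%) against 54.2% of all genes. The 2 groups did not overlap for 16 of the 40 genes, 14 higher and 2 lower, beside 37.0% of all genes tested, 19.5% higher and 17.5% lower. Without control replicate 1 the counts were 12 higher and 2 lower, beside 13.4% and 14.4% of all genes (27.8% in either direction). The genes then added were Dnajb11, Pdia6, Herpud1, Ssr1, Ssr2 and Spcs2 as higher and Edem1 as lower. Each of these passed in no other fit that left out 1 array. Since 2 controls and 1 mouse labelled transgenic were female, sex was also fitted as a block, which left 2 genes higher (Hspa5 and Dnajb9) and 0 lower, beside 5.36% and 5.47% of all genes (10.8% in either direction). A block for the replicate number gave 8 higher and 1 lower, beside 12.7% and 13.1% (25.8% in either direction). At an unadjusted p under 0.05 in the fit without blocks 18 genes differed (33.2% of all genes), 16 of them higher (16.9% of all genes). In whole epithelial preparations such as these, fewer cells of a type and less RNA per cell cannot be told apart.

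**Figure D1:**
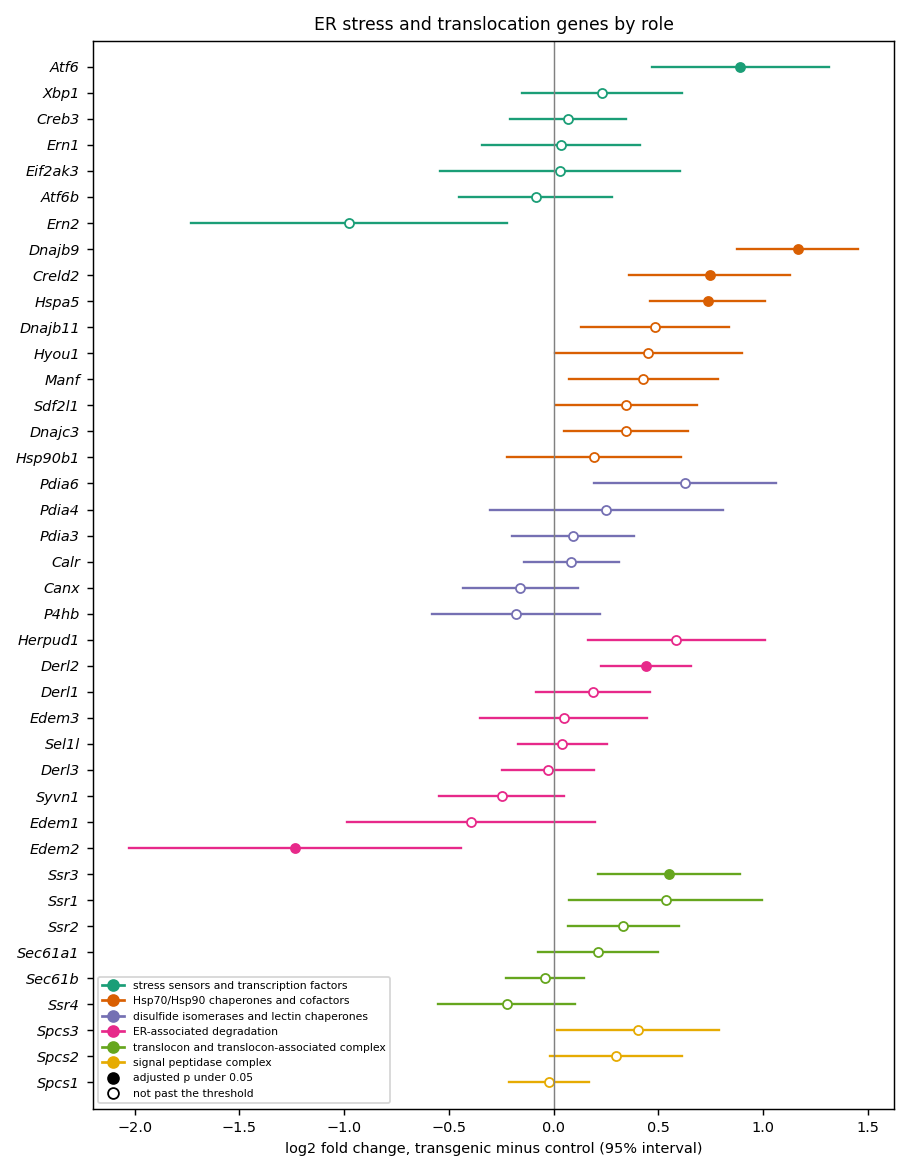
The 40 measured genes grouped by role, each with its log2 difference (transgenic minus control, x axis) and 95% interval, filled where the adjusted p was under 0.05. The 9 chaperones and cofactors all lie to the right of 0, Dnajb9 is highest at 1.17, and Edem2 is lowest at -1.23.

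The promoters of this list are known for short elements bound by ATF6 and XBP1, and they are printed because these are the sequences through which the response is known to act. RefSeq start-site windows (build GRCm38.p6) running from 250 bases before to 50 bases after the start were at hand for 33 of the 41 genes. Both strands were searched for 4 motifs spelled out in full. The ER stress response element ERSE, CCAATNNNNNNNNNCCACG, was found in 9 of the 33 genes (27.3%) and in 0.135% of the 15610 tested genes that have a window. The element ERSE-II, ATTGGNCCACG, was found in 2 of the 33 (6.06%) against 0.0577%. ERSE was originally defined on promoters of several of these same genes, so its presence is a description of the list and not a result of the arrays. ERSE, ERSE-II and the XBP1-bound core share the letters CCACG or their complement.

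In the elements below, written 5' to 3' with the motif's fixed letters in capitals, the strand given is the strand shown, and 8 bases on each side of the motif are included.
Hspa5, chr2:34772017-34772051, plus strand, ERSE: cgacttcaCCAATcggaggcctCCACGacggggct
Hsp90b1, chr10:86705630-86705664, minus strand, ERSE: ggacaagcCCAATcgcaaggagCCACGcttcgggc
Hsp90b1, chr10:86705525-86705559, plus strand, ERSE: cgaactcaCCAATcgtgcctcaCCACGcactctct
Dnajc3, chr14:118937819-118937853, plus strand, ERSE: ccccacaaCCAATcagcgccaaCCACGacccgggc
Creld2, chr15:88819512-88819546, minus strand, ERSE: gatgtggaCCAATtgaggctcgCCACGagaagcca
Pdia6, chr12:17266483-17266517, plus strand, ERSE: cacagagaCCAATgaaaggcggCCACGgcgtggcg
Calr, chr8:84847067-84847101, plus strand, ERSE: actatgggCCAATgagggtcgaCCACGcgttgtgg
Canx, chr11:50325792-50325826, minus strand, ERSE: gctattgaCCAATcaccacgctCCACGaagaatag
Syvn1, chr19:6046524-6046558, plus strand, ERSE: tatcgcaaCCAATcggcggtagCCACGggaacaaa
Derl3, chr10:75893234-75893268, minus strand, ERSE: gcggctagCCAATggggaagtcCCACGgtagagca
Dnajb11, chr16:22857844-22857870, plus strand, ERSE-II: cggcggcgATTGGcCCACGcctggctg
Herpud1, chr8:94386369-94386395, plus strand, ERSE-II: gggcgctgATTGGgCCACGttggacac

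The search covered only 250 bases before to 50 bases after the start site, so every element found lay close to it. Positions are counted to the motif's end farther upstream. The element of Hspa5 began 65 bases before the start site (-65), that of Syvn1 at -44, that of Herpud1 at -52, and the more distant of the Hsp90b1 pair at -212. The Dnajb11 element was within the transcribed start of the gene, at +8. The XBP1-bound core TGACGTGG was in 0 of the 33 windows and in 0.916% of the tested genes, and the ATF4-type element TGATGNAA was in 1 of the 33 (Herpud1, 3.03%) against 3.62%. With 1 of the 10 fixed letters of ERSE allowed to differ, 15 of the 33 genes (45.5%) had a match against 1.99% of tested genes, the added genes being Pdia3, Pdia4, Herpud1, Sel1l, Derl2 and Sec61g.

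Rises were found among genes with and without the element. Of the 9 genes with an exact ERSE, 2 rose (Hspa5 and Creld2), 0 fell and the median difference was 0.19. Of the 23 measured genes whose window held no exact ERSE, 3 rose and 1 fell, with a median of 0.07. Over all genes 8.97% were called higher and 9.65% lower. Atf6, which also rose, had no window and is in neither set. The 23 include Dnajb11 and Herpud1, which hold ERSE-II, and Derl2, which matched ERSE with 1 letter changed. Outside the list, 12 tested genes had an exact ERSE; Zfp57 rose by 0.96, Pan2 fell by 0.66, and the median was -0.11. The gene with the largest rise, Dnajb9, had none of the 4 motifs in its window. The 250 bases before the start of Hspa5 (chr2:34771840-34772089, plus strand), with 1 exact ERSE in capitals, and those of Dnajb9 (chr12:44210069-44210318, minus strand) are shown to set these side by side.
Hspa5: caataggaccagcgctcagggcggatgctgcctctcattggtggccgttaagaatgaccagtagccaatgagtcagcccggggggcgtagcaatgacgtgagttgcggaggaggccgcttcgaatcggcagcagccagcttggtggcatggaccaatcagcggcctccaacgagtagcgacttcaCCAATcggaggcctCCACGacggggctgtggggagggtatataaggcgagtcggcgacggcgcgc
Dnajb9: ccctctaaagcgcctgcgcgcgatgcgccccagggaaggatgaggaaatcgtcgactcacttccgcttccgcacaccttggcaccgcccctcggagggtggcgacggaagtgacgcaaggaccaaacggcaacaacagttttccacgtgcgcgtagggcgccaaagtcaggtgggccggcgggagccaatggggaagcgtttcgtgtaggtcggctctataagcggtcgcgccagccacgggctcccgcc

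**Figure D2:**
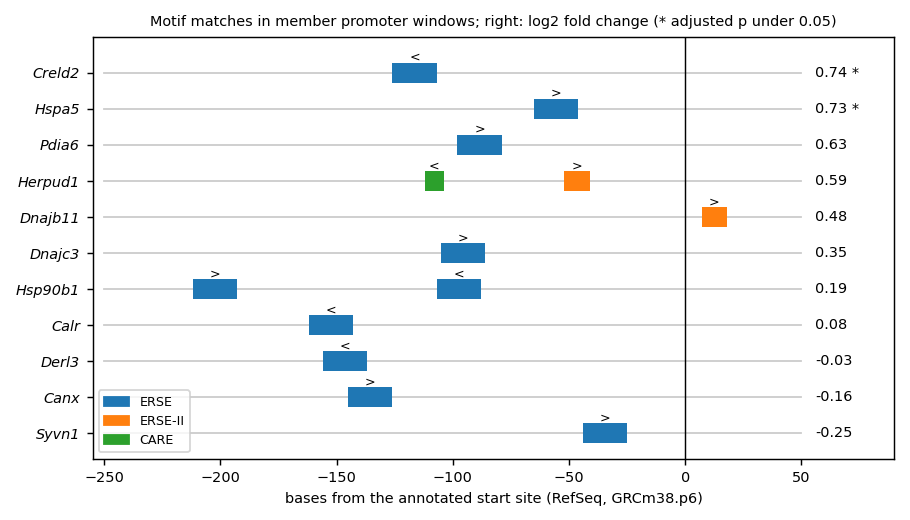
Positions of the exact motif matches in the start-site windows of the 11 genes that hold at least 1, in bases from the start site (x axis, 0 at the start), with > for a match on the gene's strand, < for the other strand, and the log2 difference at the right (* for adjusted p under 0.05). The matches begin between -212 and +8, and Hsp90b1 has 2 copies of ERSE.

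Among the 7 sensors and transcription factors 1 rose, 0 fell and the median difference was 0.04. Atf6, the ER-anchored transcription factor released by cleavage in the Golgi, was at 10.18, 9.66 and 9.59 in the controls and at 10.86, 10.63 and 10.61 in the arrays labelled transgenic. Every array labelled transgenic was above every control, and control replicate 1 was the nearest. The means were 9.81 ± 0.32 and 10.70 ± 0.14 (SD, n = 3), a difference of 0.89 (SE 0.17, 95% interval 0.47 to 1.31) or 1.86-fold, with an adjusted p of 0.0212. The call was lost without control replicate 2 (adjusted p = 0.084), control replicate 3 (0.0801), transgenic replicate 1 (0.0748) or transgenic replicate 3 (0.0734), and with sex as a block (0.0533). Its paralog Atf6b, a weaker activator of the same promoters, was at 9.04, 8.56 and 8.53 against 8.58, 8.70 and 8.59, with a difference of -0.09 (95% interval -0.45 to 0.28). The within-array difference of Atf6 minus Atf6b was 1.06 to 1.13 in the controls and 1.93 to 2.28 in the other group. This pair was chosen after its values were seen and was not tested, and the difference shows unequal change of the probe sets, not their relative levels.

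The 4 other sensors and factors given next did not pass. Eif2ak3, encoding PERK, had 8.03, 8.84 and 8.87 in the controls and 8.58, 8.74 and 8.52 in the arrays labelled transgenic, which fall within the control range. Ern1, encoding the ubiquitous IRE1alpha, was at 9.52, 9.27 and 9.42 against 9.66, 9.13 and 9.52, with a difference of 0.04 (95% interval -0.34 to 0.41). Xbp1 was at 11.57, 11.70 and 11.79 against 11.61, 12.19 and 11.95, and the difference of 0.23 (95% interval -0.15 to 0.61) did not pass (adjusted p = 0.381). The interval of Eif2ak3 ran from -0.54 to 0.60, so for it and for Xbp1 a rise of the size called for Ssr3 (0.55) lies within the interval. Creb3, a related ER-tethered transcription factor, had a difference of 0.07 (95% interval -0.21 to 0.35).

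Ern2, encoding IRE1beta, had the lowest difference of the sensors. It was at 8.58, 8.65 and 8.79 in the controls and at 8.04, 8.10 and 6.96 in the arrays labelled transgenic. The groups did not overlap, and transgenic replicate 3 stood apart from the other 2 of its group. The difference was -0.98 (SE 0.31, 95% interval -1.73 to -0.22), which did not pass in limma (adjusted p = 0.0781). It passed without transgenic replicate 3 (adjusted p = 0.0416) and in no other fit that left out 1 array. Without control replicate 3 the adjusted p was 0.218. The goblet cell markers, 7 measured, had no call, but all 7 group means were lower, with a median of -0.58. Without control replicate 1, 3 of the 7 passed as lower, beside 14.4% of all genes, and the median was -1.03. The 3 were Tff3, Clca1 and Retnlb (adjusted p = 0.0266, 0.0375 and 0.0183). Retnlb was dim, with control replicate 1 (4.58) and transgenic replicate 1 (4.93) in the background range. A block for the replicate number gave 2 lower, beside 13.1% of all genes. The 7 markers summed to 14.97 to 15.7 on the log2 scale in the controls and 14.5 to 15.4 in the arrays labelled transgenic. Transgenic replicate 3, lowest for Ern2, also had the lowest of these sums. The other arrays did not keep this order. Transgenic replicates 1 and 2 had sums of 14.6 and 15.4 with Ern2 at 8.04 and 8.10. Control replicate 1 had a lower sum than transgenic replicate 2 (14.97) and a higher Ern2 value (8.58). The part of goblet cell content in the Ern2 values was not tested.

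The chaperones of the Hsp70 and Hsp90 system with their cofactors showed the most uniform direction. Creld2, a disulfide isomerase-like protein, was counted with them and is among the calls given here. All 9 had a higher mean in the arrays labelled transgenic, beside 54.2% of all genes. Of the 9, 3 passed the test (8.97% of all genes as higher) and 7 had groups that did not overlap (19.5%, higher). The median over the 9 was 0.45. The largest rise was that of Dnajb9 (ERdj4), a J-domain partner of BiP that also restrains IRE1. It was at 9.73, 10.10 and 9.84 in the controls and at 10.96, 11.05 and 11.16 in the arrays labelled transgenic, so the groups were separated by more than the range of either. The means were 9.89 ± 0.19 and 11.05 ± 0.10 (SD, n = 3), a difference of 1.17 (SE 0.12, 95% interval 0.88 to 1.45) or 2.24-fold, with an adjusted p of 0.00413. The call was kept when each array was left out in turn, with a highest adjusted p of 0.0297, and with sex as a block.

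Hspa5 itself, the abundant ER Hsp70, was at 12.49, 12.19 and 12.12 in the controls and at 12.97, 13.05 and 13.00 in the arrays labelled transgenic. The 3 arrays labelled transgenic lay within 0.1 of each other and above all controls. The difference between 12.27 ± 0.20 and 13.01 ± 0.04 (SD, n = 3) was 0.73 (SE 0.11, 95% interval 0.46 to 1.01) or 1.66-fold, with an adjusted p of 0.0118, and 0.85 without control replicate 1 (adjusted p = 0.00311). The adjusted p moved above the threshold, to 0.0567, 0.0509 and 0.0532, without control replicate 2, control replicate 3 or transgenic replicate 3.

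Creld2, a disulfide isomerase-like protein secreted under ER stress, was at 10.54, 10.29 and 10.17 in the controls and at 10.96, 11.37 and 10.91 in the arrays labelled transgenic. All of the latter were above all controls, with transgenic replicate 2 highest. The difference was 0.74 (SE 0.16, 95% interval 0.36 to 1.13), 1.68-fold, with an adjusted p of 0.0268. Leaving out control replicate 2, control replicate 3, transgenic replicate 1 or transgenic replicate 3 gave adjusted p-values of 0.0985, 0.101, 0.067 and 0.0681, and sex as a block gave 0.0686.

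The other 6 genes of this group did not pass. Dnajb11 (ERdj3), a J-domain partner that binds unfolded chains, was at 10.14, 9.84 and 9.69 against 10.26, 10.56 and 10.30, a difference of 0.48 (95% interval 0.13 to 0.84, adjusted p = 0.0671) that passed without control replicate 1 (adjusted p = 0.0182). Manf, a BiP-binding protein that can be secreted, was at 9.08, 9.05 and 8.82 against 9.35, 9.68 and 9.20. Its difference of 0.43 (adjusted p = 0.096) passed with a block for the replicate number (adjusted p = 0.0415). Both genes had separated groups with narrower gaps than those of Hspa5. Hyou1, a large Hsp70 that exchanges nucleotide on BiP, differed by 0.45 (95% interval 0.01 to 0.90), Dnajc3 (p58IPK) by 0.35 (0.05 to 0.64) and the BiP cofactor Sdf2l1 by 0.35 (0.01 to 0.68). Hsp90b1, the ER Hsp90 whose window holds a pair of ERSE copies, was at 12.63, 12.16 and 12.08 against 12.44, 12.66 and 12.34, overlapping groups with a difference of 0.19 (95% interval -0.22 to 0.61).

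**Figure D3:**
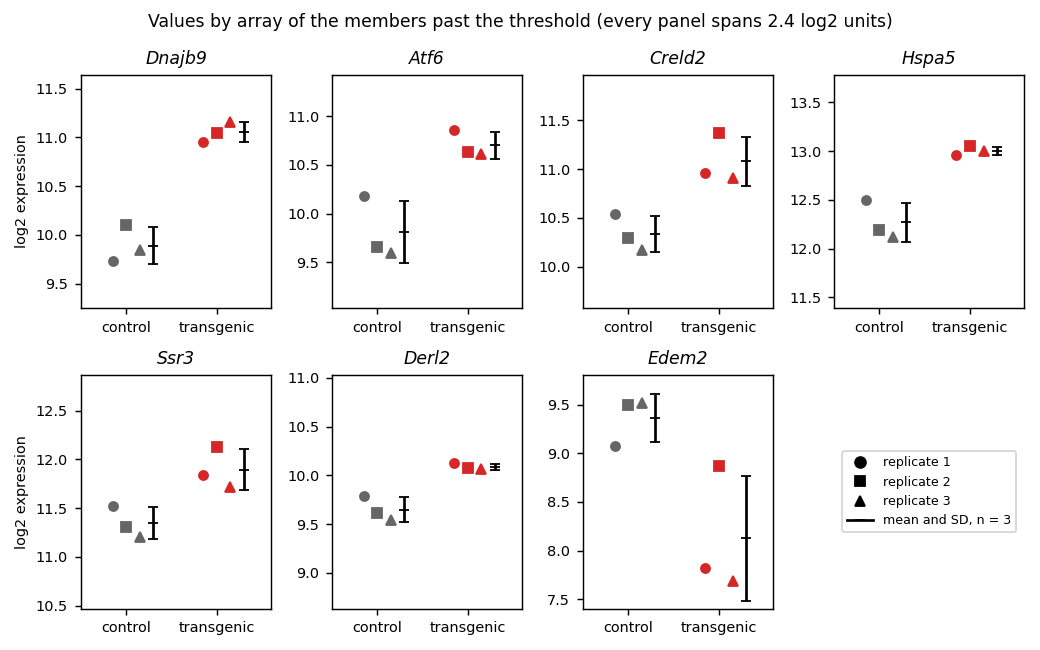
Log2 value on each array for the 7 genes past the threshold, 1 panel each, with the array's replicate number as the marker and the group mean and SD (n = 3) beside the points. In each panel all 3 transgenic arrays lie on 1 side of all 3 controls, above them for 6 genes and below them for Edem2.

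The disulfide isomerases and lectin chaperones, counted without Creld2, had 0 calls among 6, with a median of 0.09. At an unadjusted p under 0.05 only Pdia6 among them differed. Pdia6, an isomerase that also binds the sensors, was at 10.56, 9.99 and 9.93 in the controls and at 10.80, 10.87 and 10.69 in the arrays labelled transgenic. The groups were separated, with control replicate 1 well above the other controls. The difference between 10.16 ± 0.35 and 10.79 ± 0.09 (SD, n = 3) was 0.63 (SE 0.18, adjusted p = 0.0595). It passed without control replicate 1 (0.83, adjusted p = 0.004) and with a block for the replicate number (adjusted p = 0.0388).

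The calnexin cycle, in which Canx and Calr hold glycoproteins for Pdia3, was flat by comparison. Canx was at 13.09, 12.88 and 12.84 against 12.74, 12.94 and 12.65, Calr at 12.42, 12.27 and 12.24 against 12.36, 12.52 and 12.31, and Pdia3 at 12.42, 12.14 and 12.08 against 12.25, 12.44 and 12.23. Their differences were -0.16 (95% interval -0.43 to 0.11), 0.08 (-0.14 to 0.31) and 0.09 (-0.20 to 0.38), so a rise of the size seen for Hspa5 lies outside all 3 intervals. P4hb, the classical protein disulfide isomerase, had a difference of -0.18 (95% interval -0.58 to 0.22). Pdia4 was at 11.89, 11.28 and 11.15 against 11.58, 11.99 and 11.51, a difference of 0.25 (95% interval -0.30 to 0.81). A second Pdia4 probe set, with values of 5.96 to 7.30, gave a difference of the opposite sign, -0.45 (adjusted p = 0.416).

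Genes of ER-associated degradation moved in both directions, with 1 rise, 1 fall and a median of 0.04 over 9. Derl2, a derlin of the retrotranslocation complex, was at 9.79, 9.62 and 9.54 in the controls and at 10.12, 10.07 and 10.07 in the arrays labelled transgenic. The latter were nearly identical and above all controls. The difference was 0.44 (SE 0.09, 95% interval 0.23 to 0.65) or 1.36-fold, with an adjusted p of 0.0228. It missed the threshold without control replicate 2 (0.0893), control replicate 3 (0.0845), transgenic replicate 1 (0.083) or transgenic replicate 3 (0.0804), and with sex as a block (0.0571). Its paralog Derl1 differed by 0.19 (95% interval -0.08 to 0.46) and Derl3 by -0.03 (-0.25 to 0.19). Derl3, at 6.21 to 6.46 over the 6 arrays, is also a plasma cell marker.

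Edem2, which acts with the mannosidases that mark misfolded glycoproteins, was at 9.07, 9.50 and 9.52 in the controls and at 7.83, 8.87 and 7.69 in the arrays labelled transgenic. All of the latter were lower, and transgenic replicate 2 was much nearer the controls than the other 2. The difference between 9.36 ± 0.25 and 8.13 ± 0.64 (SD, n = 3) was -1.23 (SE 0.33, 95% interval -2.03 to -0.44), a 2.35-fold fall with an adjusted p of 0.048. Without transgenic replicate 2 the adjusted p was 0.00473, and without control replicate 2, control replicate 3, transgenic replicate 1 or transgenic replicate 3 it was 0.151, 0.155, 0.146 and 0.15. With sex as a block it was 0.0617. Its paralogs differed less. Edem1 was at 10.61, 11.36 and 11.35 against 10.49, 11.02 and 10.63, a difference of -0.39 (95% interval -0.99 to 0.20) that passed without control replicate 1 (-0.64, adjusted p = 0.0382). Edem3 had a difference of 0.05 (95% interval -0.35 to 0.45).

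Of the ubiquitin ligase complex, 3 listed genes did not pass on all arrays. Herpud1, a membrane scaffold of the ligase complex, was at 11.47, 10.81 and 11.23 in the controls and at 11.65, 11.81 and 11.81 in the arrays labelled transgenic. The groups were separated by a gap smaller than the control range, and the difference of 0.59 (SE 0.17, 95% interval 0.16 to 1.01, adjusted p = 0.0662) passed without control replicate 1 (0.74, adjusted p = 0.018). Sel1l, the adaptor of the ligase, had a difference of 0.04 (95% interval -0.17 to 0.25). Syvn1 (HRD1), the ligase itself, was at 9.19, 9.31 and 9.24 against 8.90, 9.25 and 8.85, a difference of -0.25 (95% interval -0.55 to 0.05) that passed without transgenic replicate 2 (-0.37, adjusted p = 0.0368). It passed in no other fit that left out 1 array.

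Of the 6 measured subunits of the translocon and its associated complex, 1 rose and 0 fell, with a median of 0.27. Ssr3, the gamma subunit of the translocon-associated protein complex, was at 11.52, 11.30 and 11.21 in the controls and at 11.84, 12.13 and 11.71 in the arrays labelled transgenic. The groups did not overlap. The difference was 0.55 (SE 0.14, 95% interval 0.21 to 0.89) or 1.46-fold, with an adjusted p of 0.0428. Without control replicate 1 it was 0.64 (adjusted p = 0.0234), and without each of the other arrays the adjusted p was above the threshold, at 0.137 and 0.144 without control replicates 2 and 3 and at 0.108, 0.0681 and 0.0763 without transgenic replicates 1, 2 and 3.

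The alpha and beta subunits of that complex lay in the same direction below the threshold. Ssr1 was at 12.02, 11.45 and 11.36 against 12.08, 12.30 and 12.06, a difference of 0.54 (95% interval 0.08 to 1.00, adjusted p = 0.104). Ssr2 was at 12.33, 12.06 and 11.98 against 12.48, 12.50 and 12.38, a difference of 0.33 (95% interval 0.07 to 0.60, adjusted p = 0.0855). In both, control replicate 1 was the control nearest to the other group, and both passed without it (adjusted p = 0.00747 and 0.016). The delta subunit Ssr4 was at 10.85, 10.92 and 10.94 against 10.53, 10.97 and 10.54, with a difference of -0.22 (95% interval -0.55 to 0.10). Its interval does not overlap that of Ssr3. Ssr4 passed as lower without transgenic replicate 2 (-0.37, adjusted p = 0.0327) and in no other fit that left out 1 array.

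The channel itself differed little. Sec61a1, the pore-forming subunit, was at 12.60, 12.45 and 12.44 against 12.62, 12.93 and 12.57, a difference of 0.21 (95% interval -0.08 to 0.50, adjusted p = 0.279). Sec61b had a difference of -0.04 (95% interval -0.23 to 0.15), and its other probe sets gave 0.08 and 0.09. Sec61g could be read only from 4 probe sets that also name predicted copies of it, at 9.89 to 11.01. Their differences were between -0.12 and -0.07, with a lowest adjusted p of 0.701 and 95% intervals within -0.52 to 0.33. Their signal cannot be assigned to Sec61g alone.

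The signal peptidase subunits had 0 calls among 3, with a median of 0.30. Spcs3, a noncatalytic subunit, was at 10.01, 9.82 and 9.64 against 10.20, 10.49 and 9.98, a difference of 0.40 (95% interval 0.02 to 0.79, adjusted p = 0.137). Spcs2 was at 11.63, 11.25 and 11.19 against 11.67, 11.70 and 11.60. It differed by 0.30 (95% interval -0.02 to 0.61) and passed without control replicate 1 (0.44, adjusted p = 0.0141). In both genes transgenic replicate 3 was just below control replicate 1, so the groups overlapped. Spcs1 had a difference of -0.02 (95% interval -0.21 to 0.17).

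The arrays of a group were not interchangeable for these genes. Transgenic replicate 2 was the highest array of its group in 34 of 40 genes (85.0%), against 29.4% of all genes tested. Control replicate 1 was the highest control in 23 of 40 (57.5%, against 39.2%), and control replicate 3 was the lowest in 23 of 40 (57.5%, against 27.0%). The median deviation from the control mean over the 40 genes was 0.11, -0.04 and -0.09 in control replicates 1 to 3 and 0.15, 0.36 and 0.14 in the arrays labelled transgenic. Over all genes the same medians lay between -0.01 and 0.05. The ordering was clearest among the 9 chaperones, whose medians were 0.20, -0.04 and -0.16 in the controls and 0.37, 0.70 and 0.22 in the other arrays. Transgenic replicate 2 was thus the highest array for most of these genes, while for the largest fall, Edem2, it was the nearest to the controls. The 40 values of an array come from 1 animal and are not independent.

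**Figure D4:**
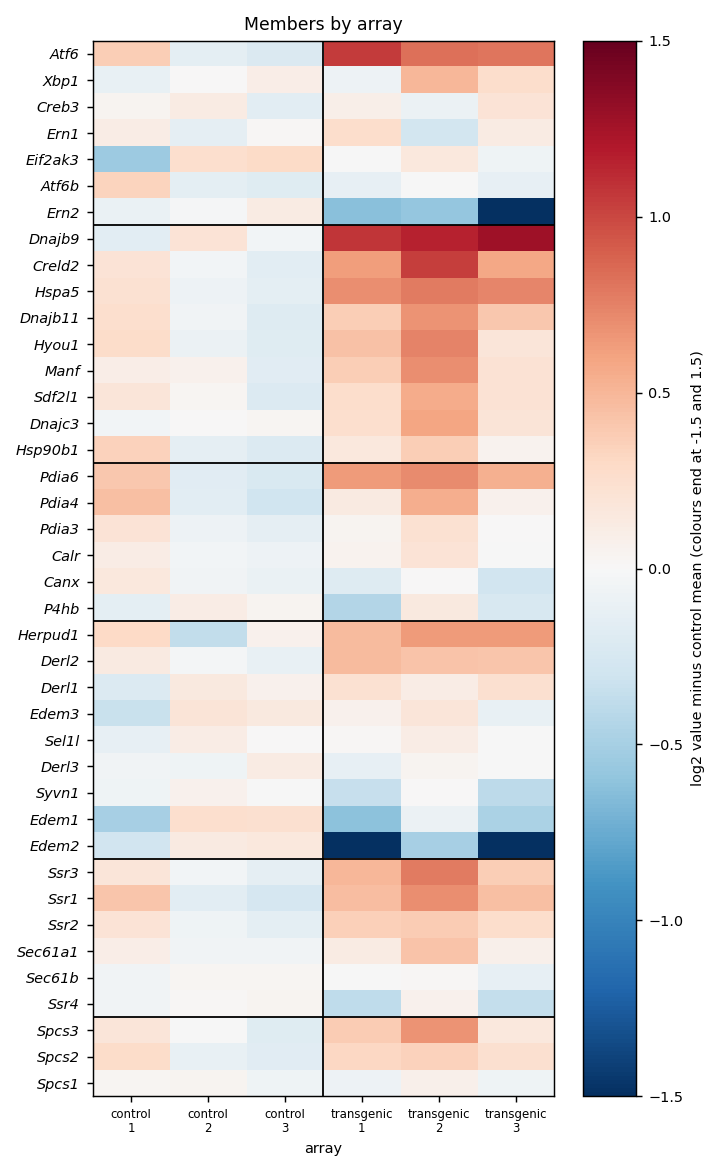
Heat map of the 40 measured genes (rows, grouped by role) on the 6 arrays (columns), coloured by log2 value minus the mean of the 3 controls. Dnajb9, Hspa5 and Atf6 are raised on all 3 transgenic arrays, Edem2 and Ern2 are lowered on all 3, and transgenic replicate 2 has the highest value of its group in 34 of the 40 rows.

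Of 96 measured genes of neighbouring steps, 24 rose and 4 fell, beside 8.97% and 9.65% of all genes, and the median difference was 0.04. The PERK and ATF4 arm had the highest median of the 10 groups, with 8 rises, 0 falls and a median of 1.17 over 12 genes. Vldlr, a lipoprotein receptor induced by ATF4, rose by 2.03 (SE 0.20, adjusted p = 0.00399), Ppp1r15a (GADD34), which directs dephosphorylation of eIF2alpha, rose by 1.81 (SE 0.29, adjusted p = 0.0124), and Atf4 itself rose by 1.00 (SE 0.20, adjusted p = 0.0234). Asns, Sesn2, Nupr1, Chac1 and Trib3 rose by 1.28, 1.31, 1.43, 1.23 and 1.11. ATF4 targets also respond to amino acid shortage and other triggers of eIF2alpha phosphorylation. Ddit3 (CHOP), a stress-induced transcription factor of the same arm, was at 7.96, 7.98 and 7.99 in the controls and at 8.02, 7.89 and 8.13 in the arrays labelled transgenic. Its difference of 0.03 had a 95% interval from -0.17 to 0.24.

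In ER-associated degradation beyond the list, 5 of 13 genes rose and 1 fell. The conjugating enzymes Ube2g2 and Ube2j1 rose by 0.95 (SE 0.18, adjusted p = 0.0188) and 0.76 (SE 0.09, adjusted p = 0.00524), and the extraction ATPase Vcp and its membrane adaptors Ubxn4 and Faf2 rose by 0.62, 0.78 and 0.38. Ubac2 fell by 0.55. Without control replicate 1 the group had 5 rises and 5 falls. The falls were Ubac2 (-0.59, adjusted p = 0.0211), the ER ubiquitin ligase Marchf6 (-1.004, adjusted p = 0.00298), Fam8a1 (-0.72, adjusted p = 0.0153) and the glycan-binding lectins Erlec1 (-0.87, adjusted p = 0.00915) and Os9 (-0.52, adjusted p = 0.038). On all arrays Marchf6, Fam8a1, Erlec1 and Os9 did not pass (adjusted p = 0.063, 0.0867, 0.0707 and 0.184).

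Of the signal recognition particle and its receptor, which bring ribosomes to the translocon, 3 of 7 genes rose and 0 fell. These were Srp9 (0.76), Srp14 (0.37) and Srp19 (0.42). Among the other translocation factors only Sec11a, a catalytic subunit of the signal peptidase, rose (0.42). Of 10 oligosaccharyltransferase genes 1 rose, Tusc3 (0.67, SE 0.10, adjusted p = 0.0105), an oxidoreductase subunit. Glycan trimming had 1 rise, the cargo receptor subunit Mcfd2 (0.51), and 1 fall, glucosidase I (Mogs, -0.64), among 7. Of 14 other folding factors Ero1a, the oxidase that recharges disulfide isomerases, rose by 1.02 (SE 0.17, adjusted p = 0.0141) and the thioredoxin-domain protein Txndc5 fell by 0.50. In the COPII coat, which carries cargo out of the ER, Sar1a (0.72) and Sec23b (0.66) rose among 12 genes whose median was -0.22.

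Mbtps1, the site-1 protease that cleaves ATF6 in the Golgi, fell by 0.42 (SE 0.09, adjusted p = 0.0297), the 1 call among 6 other transducers and proteases, whose median was -0.63. Of 8 cytosolic heat shock genes Bag3 rose by 1.16 (adjusted p = 0.0102) and Hspa8 by 0.34, and 0 fell. Without control replicate 1 the counts over the 96 genes were 26 higher and 14 lower, beside 13.4% and 14.4% of all genes. With sex as a block they were 13 and 2, beside 5.36% and 5.47%. A block for the replicate number gave 25 and 14, beside 12.7% and 13.1%. Of the 28 called genes, 5 (Vldlr, Sesn2, Ube2j1, Ubxn4 and Bag3) passed with each array left out in turn. Those still past the threshold were 28 and 24 without control replicate 1 or transgenic replicate 2, 5 and 8 without control replicates 2 or 3, and 9 and 8 without transgenic replicates 1 or 3.

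**Figure D5:**
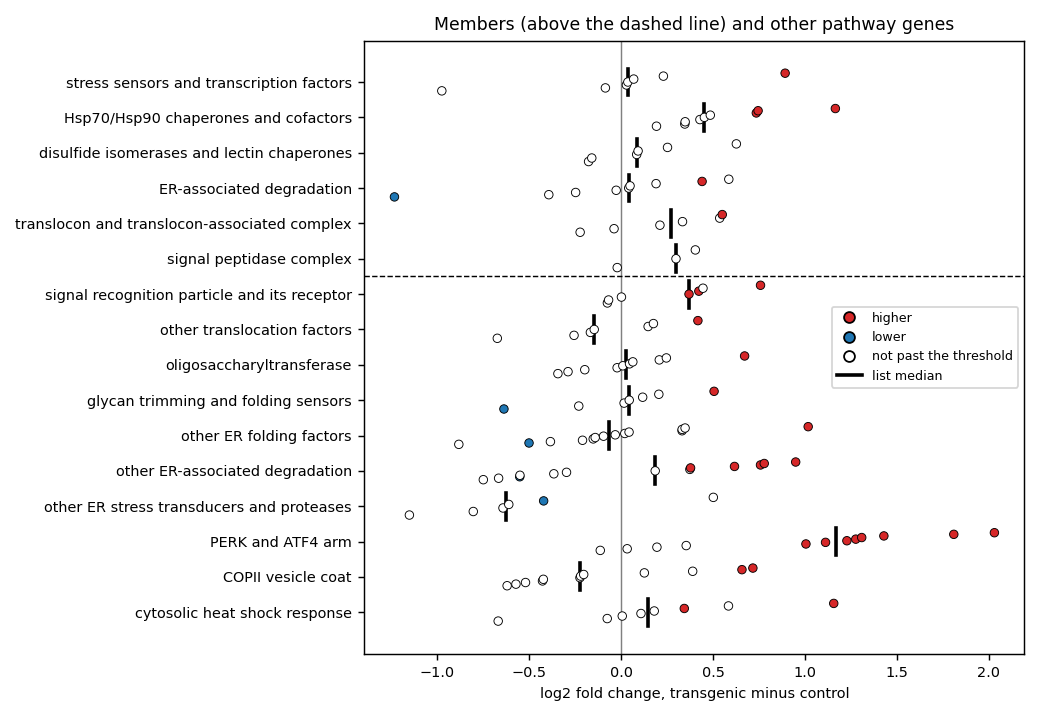
Log2 difference (transgenic minus control, x axis) of each gene by role, with the 6 groups of the described list above the dashed line and 10 groups of neighbouring genes below it, red for genes past the threshold and higher, blue for lower, white for the rest, and a bar at each group's median. The PERK and ATF4 arm has the highest median, 1.17, and the chaperones have the highest median above the line, 0.45.

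Other cell types in the preparation were read from marker lists. The epithelial markers summed to 15.5 to 15.6 on the log2 scale in both groups, with 2 of 8 higher (Cdh1 and Krt18) and 2 lower (Cdx2 and Vil1). Markers of T cells and intraepithelial lymphocytes moved with the labels: 8 of 10 were lower, Cd247 was higher, and their summed level was 12.2 to 12.9 in the controls and 9.86 to 11.0 in the arrays labelled transgenic. Plasma and B cell markers, which matter here because plasma cells have a large ER, had 0 calls among 9. Their sums were 10.1 to 10.7 and 10.7 to 10.8, with Cd79a and Ms4a1 in the background range on all arrays. Sdc1 was the brightest of these markers on every array and had the largest difference, 0.71, so the sums mainly reflect Sdc1. Differences of the other markers lay between -0.19 (Jchain) and 0.19 (Cd79b), and the median over the 9 was -0.02. Paneth markers had 0 calls among 6, with sums of 15.3 to 15.4 and 15.1 to 15.5. Myeloid markers had 1 call among 8 (Cd14, higher; sums 11.6 to 12.0 and 11.3 to 12.0, Adgre1 in the background range). Fibroblast and muscle markers had 0 among 8, with sums of 9.15 to 9.65 and 9.33 to 9.48. Endothelial markers had 1 call among 5 (Tie1, higher), with sums of 7.84 to 7.90 and 8.23 to 8.39 and Kdr in the background range. The other endothelial markers differed by -0.08 (Pecam1) to 0.08 (Vwf), and the median over the 5 was -0.003. The gap between these sums thus mainly reflects Tie1. The part of these cell types in the differences of the ER genes was not tested.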

How the data were processed

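The deposited table holds a log2 value for each probe set and array, unpooled. The submitters' processing notes name Partek and RMA with no version. RMA subtracts background, makes the arrays' distributions alike and combines the probes of a probe set. A shift shared by all transcripts is thereby lost, and differences of dim probe sets come out too small. The genome build was not given in the sources used here. Of 28350 probe sets, 21780 name 1 gene, 1618 several, and 4952 are unnamed here; 21689 matched RefSeq (GRCm38.p6) by gene identifier. Each gene was taken from its 1-gene probe set with the highest mean.

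The comparison used lmFit and eBayes of limma 3.58.1 (R 4.3.3) with a term for group alone, two-sided, with Benjamini-Hochberg adjustment over 19933 genes and a threshold of 0.05. The fit was tested on simulated data with independent noise for each gene and array and no effect of sex, replicate number or single arrays. That test cannot tell how such effects move the calls. Fold changes and standard errors (moderated) are on the log2 scale. Dim probe sets were kept. Precision is limited by the number of arrays. The genes described and the lists beside them were chosen with earlier results of these data known. All listed genes are named, and of the neighbouring genes those past the threshold; others were chosen after their values were seen.

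Replicate numbers are shared between groups. Deviations from the group means correlated by 0.52, 0.41 and 0.13 for numbers 1, 2 and 3, so the number was also fitted as a block. No label says what a number shares, deviations cancel within each group, and control replicate 3 correlated more with transgenic replicate 2 (0.32). Alternatives were this block, sex (read from Xist and Y-linked genes), mean of probe sets, filters at means of 5 and 6, quantile normalization, median centring, intensity trends, array weights, a threshold of 0.10 and leaving out each array.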

Additional observations from a re-analysis of the deposited data

How the results depend on the processing

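The 6 higher and 1 lower calls among the 40 genes depended on single arrays. Leaving out each array in turn gave 1 to 12 higher and 0 to 3 lower, beside 952 to 5542 calls over all genes, with 3710 on all arrays. The high ends, 12 and 5542, came without control replicate 1. The low end of 1 came without control replicate 2, control replicate 3 or transgenic replicate 3, and 2 higher remained without transgenic replicate 1. Lower calls were 3 without transgenic replicate 2 and 0 without control replicate 2, control replicate 3 or transgenic replicate 1. Dnajb9 passed in every one of these fits.

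Sex as a block gave 2 higher, 0 lower and 2159 of all genes, array weights 13, 4 and 7072, and a threshold of 0.10 gave 11, 2 and 5464. Array weights gave control replicate 1 a weight of 0.33. A block for the replicate number gave 8 higher and 1 lower, adding Manf and Pdia6 and changing no other call among the 40. Filters at means of 5 and 6 gave 6 and 7 higher, beside 11.7% and 15.0% of the genes kept. Over the other alternatives the higher count was 4 to 6, beside 8.73% to 8.94% of all genes; Ssr3 was lost with renewed quantile normalization and with the intensity trend, and Derl2 with the intensity trend.

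Signs changed in 24 of 680 recomputed values, in 10 genes, none past the threshold and none with a main difference above 0.25 in size. With renewed quantile normalization Ern1 was at -0.013. With sex as a block Eif2ak3 was at -0.059 and Edem3 at -0.039. With array weights Atf6b was at 0.023, Eif2ak3 at -0.21, Sel1l at -0.022 and Edem3 at -0.12. With the mean of all probe sets Pdia4 was at -0.098 and Sec61b at 0.042. Leaving out arrays gave Ern1 -0.076 to 0.19, Atf6b -0.18 to 0.079, Eif2ak3 -0.25 to 0.17, Creb3 -0.012 to 0.145, Sel1l -0.018 to 0.095, Derl3 -0.063 to 0.036, Edem3 -0.12 to 0.14, Sec61b -0.067 to 0.0054 and Spcs1 -0.071 to 0.0055. Apart from the omission of arrays, which leaves fewer samples, the cause of these changes was not tested.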
